A study of Homo sapiens with 8 samples.

Results

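A set of 10 genes of the BCL2 family of apoptosis regulators was followed in WT and XRN1-null HEK293T cells by RNA-Seq and Ribo-Seq. They are MCL1, BCL2L1, BCL2L12, BAX, BAK1, BID, BCL2L11, BBC3, PMAIP1 and BAD, which were taken by name, and all 10 were found among the 10105 genes of the count table. HEK293T is an established human embryonic kidney line that carries the large T antigen of SV40. The XRN1-null cells were derived from it by CRISPR/Cas9 editing of XRN1, the major cytoplasmic 5′–3′ exoribonuclease. The edited cells are 1 line, so an effect of the genotype and a property of that line cannot be told apart. Neither genotype received a treatment, and cells were collected 24 h after plating. RNA-Seq measured mRNA abundance and Ribo-Seq measured ribosome-protected fragments (RPF). Each assay had 2 replicates of either genotype, 8 libraries in total. Dividing RPF by mRNA gives translational efficiency (TE). The comparison asked whether loss of XRN1 changed the mRNA level, the ribosomal occupancy or the TE of these genes.

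Proteins of the BCL2 family decide whether the outer mitochondrial membrane is permeabilized, the step that releases cytochrome c and starts the intrinsic pathway of apoptosis. MCL1 and BCL2L1 (which encodes BCL-XL) are guardians that hold the pathway in check, and BAX and BAK1 encode the effectors that form the pore. The BH3-only proteins signal stress to them: BID links death receptors to mitochondria, BCL2L11 encodes BIM, BBC3 encodes PUMA, PMAIP1 encodes NOXA, and BAD senses survival signalling. BCL2L12 encodes an atypical member. Several of these proteins are short-lived, and BAX, BBC3 and PMAIP1 are known target genes of p53, a protein that large T antigen binds.

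RNA-Seq libraries held 33757487 to 38145433 counts and Ribo-Seq libraries 1921641 to 4399542. The shallowest was replicate 1 of WT Ribo-Seq. Values are given as CPM, counts per 1000000 counts after TMM scaling within each assay. XRN1, the edited gene, had 33.5 and 33.01 CPM of mRNA in the WT libraries and 282 and 253 CPM in the XRN1-null libraries. Its RPF stood at 34.4 and 49.8 CPM in WT against 22.6 and 18.4 CPM in XRN1-null cells. The RPF of XRN1 lay lower and its mRNA higher in each library labelled XRN1-null, so the mRNA level does not check the labels. Of 4 markers of the line, KRT8, KRT18 and VIM were in the table and PAX2 was not. None of the 3 leukocyte, 2 hepatocyte and 2 endothelial markers was in the table, and of 3 fibroblast markers 1 was, COL1A1, whose mRNA averaged 14.6 CPM in WT against 37.1 CPM in XRN1-null cells; its part in the results below was not tested.

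What joins the family at the level of sequence is the BH3 core, through which its proteins bind each other. A search of the translated reference transcripts for leucine, any 3 residues, then glycine, alanine or serine and an aspartate, with a residue of I, L, V, A, Y or C placed 4 positions before the leucine, found a match in 9 of the 10 proteins. The exception was BCL2L12. BID held another match with its leucine at residue 25, and the one with its leucine at residue 90 is shown. The 30 bases around each match are printed to let the cores be compared, with the 18 bases of the core in capitals, 5′ to 3′ on the coding strand, from GENCODE release 44 transcripts mapped to GRCh37. A match describes the letters and was not tested for binding. The class of residues before the leucine was added to the planned core, and the share of other proteins with a match was not counted. The count of 9 is thus a description of these proteins and not a test of the pattern.
MCL1: gagaccTTACGACGGGTTGGGGATggcgtg
BCL2L1: caagcgCTGAGGGAGGCAGGCGACgagttt
BAX: gagtgtCTCAAGCGCATCGGGGACgaactg
BAK1: cggcagCTCGCCATCATCGGGGACgacatc
BID: aggcacCTCGCCCAGGTCGGGGACagcatg
BCL2L11: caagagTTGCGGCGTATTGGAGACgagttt
BBC3: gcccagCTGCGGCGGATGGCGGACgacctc
PMAIP1: actcaaCTCAGGAGATTTGGAGACaaactg
BAD: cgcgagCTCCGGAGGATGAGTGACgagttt

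In GRCh37, whose chromosomes have the coordinates of hg19, each printed stretch lay within 1 coding exon. It was found in exon 1 of MCL1 (chr1:150551347-150551376, minus strand) and in exon 2 of BCL2L1 (chr20:30309731-30309760, minus). For the effectors it lay in exon 3 of BAX (chr19:49459038-49459067, plus) and exon 4 of BAK1 (chr6:33543170-33543199, minus). For the BH3-only genes it lay in exon 4 of BID (chr22:18222187-18222216, minus), exon 3 of BCL2L11 (chr2:111907674-111907703, plus) and exon 3 of BBC3 (chr19:47729842-47729871, minus). The remaining stretches were in exon 2 of PMAIP1 (chr18:57569899-57569928, plus) and exon 3 of BAD (chr11:64039100-64039129, minus). BCL2L12 spans 50168399 to 50177173 of chromosome 19 on the plus strand and has 7 exons in its reference transcript.

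The mRNAs differ widely in how much of their length is coding. In the reference transcripts the coding part ran from 162 nt in PMAIP1, which encodes 54 residues, to 1050 nt in MCL1. It made up 8.5% of the PMAIP1 transcript and 11.7% of that of BCL2L11, against 72.5% in BAX and 70.5% in BCL2L12. BCL2L11 had the longest 3′ UTR of the 10, with 4213 nt, and BAX the shortest, with 162 nt.

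The pentamer ATTTA, the core of AU-rich elements, was counted in the 3′ UTRs on the mRNA strand only, with overlapping matches counted. Among 9310 genes of the table with an annotated 3′ UTR, 74.2% held at least 1. MCL1 had 10 in its 3′ UTR, more than 75.3% of 3′ UTRs of like length (0.8 to 1.25 times), whose median was 6. BCL2L11 had 8, where the median at like length was 10, and PMAIP1 had 5, where it was 3. BCL2L1 held 3 and BID 2. BBC3, BAK1, BAX, BCL2L12 and BAD held none. At the length of the 3′ UTR of BBC3, 77.3% of other genes held at least 1, and at that of BAK1 83.1%. For BAX and BCL2L12, with short 3′ UTRs, the shares were 25.1% and 26.0%, and for BAD 45.3%.

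To compare genes with each other, mRNA levels were divided by the deposited gene width (RPKM). In WT cells BAX and PMAIP1 led, at 93.8 ± 3.47 and 87.1 ± 9.94 RPKM (SD, n = 2 each), and their libraries overlapped. MCL1 followed at 56.5 ± 4.26 RPKM and BCL2L12 at 52.7 ± 0.757 RPKM (SD, n = 2 each). The next were BAD at 37.2 ± 4.16, BAK1 at 33.2 ± 1.41 and BID at 23.6 ± 0.697 RPKM (SD, n = 2 each). BCL2L1 (12.7 ± 0.526), BCL2L11 (8.44 ± 0.0637) and BBC3 (5.80 ± 0.230) had the lowest mRNA levels per length (RPKM, SD, n = 2 each). Apart from BAX and PMAIP1, no neighbours in this order overlapped, although the nearest libraries of BAD and BAK1 nearly met. Of the guardians, MCL1 mRNA thus exceeded that of BCL2L1 per length by 4.08 and 4.82 times in the WT libraries.

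In XRN1-null cells the order of mRNA levels per length was different. PMAIP1, at 83.8 ± 0.0543 RPKM, stood above BAX, at 60.0 ± 4.38 RPKM (SD, n = 2 each), with no overlap, and BAX now overlapped MCL1, at 57.1 ± 1.42 RPKM. BAK1, at 47.4 ± 0.00604 RPKM, passed BCL2L12 and BAD, at 41.4 ± 1.17 and 36.0 ± 1.47 RPKM (SD, n = 2 each). The last 4 places were held by BID, BCL2L1, BCL2L11 and BBC3 in the same order as in WT cells.

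Between the genotypes, the effector mRNAs moved in opposite directions. BAK1 mRNA had 70.7 and 75.1 CPM in WT against 104 and 104 CPM in XRN1-null libraries. BAX mRNA had 126 and 119 CPM in WT against 74.3 and 82.4 CPM in XRN1-null libraries. The genotypes did not overlap for either gene, which is the usual outcome with 2 libraries a group: in mRNA 41% of all genes had each XRN1-null library above the WT libraries and 43.7% had each below. BAK1 rose 1.43-fold, a log2 fold change of 0.51 (SE, standard error, 0.0647; edgeR quasi-likelihood FDR 0.000334, adjusted over all genes). BAX fell to 0.640 times its WT level, a log2 fold change of −0.64 (SE 0.0744, edgeR FDR 0.000216). The ratio of BAK1 to BAX mRNA per length was 0.335 and 0.375 in WT against 0.832 and 0.750 in XRN1-null libraries. BAK1 has the processed pseudogenes BAK1P1 and BAK1P2 elsewhere in the genome, neither of them a row of the table, and reads shared with such copies make its value uncertain.

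BBC3, the gene of PUMA, had the lowest mRNA level of the 10 and the largest fall. Its mRNA stood at 11.8 and 12.5 CPM in WT against 5.74 and 4.73 CPM in XRN1-null libraries, from 418, 410, 217 and 184 counts. The XRN1-null libraries were each below both WT libraries, with a log2 fold change of −1.21 (SE 0.127, edgeR FDR 0.000144). BCL2L12 mRNA fell less, from 99.4 and 101 CPM to 77.2 and 80.4 CPM. That is a log2 fold change of −0.35 (SE 0.0628, edgeR FDR 0.00185). BCL2L12 did not pass the threshold with either XRN1-null RNA-Seq library left out (FDR = 0.0477 without replicate 1 and 0.0237 without replicate 2, from edgeR). BCL2L12 has a processed pseudogene, BCL2L12P1, that is not a row of the table and could share its reads. Its gene overlaps IRF3 on the other strand, and the counting is not stated to use strand. IRF3 mRNA had a log2 fold change of 0.06 (SE 0.0875).

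In all, 1 of the 10 mRNAs was higher and 3 were lower in XRN1-null cells at an FDR below 0.005, and 6 passed in neither direction. Over the 10105 genes tested, 22.9% were called higher and 23.2% lower, so a share of called genes of this size is near the background. The median log2 fold change of the 10 was −0.14, and that of all genes was −0.01. Leaving out replicate 2 of WT RNA-Seq raised the number of lower members to 6, with BCL2L1, BID and PMAIP1 added, while calls over all genes in that fit rose to 33.7% higher and 33.5% lower.

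MCL1 mRNA, the most abundant of the 10 in CPM, had 219 and 243 CPM in WT against 229 and 237 CPM in XRN1-null cells. The XRN1-null values lay within the WT range, and the log2 fold change was 0.01 with a 95% interval from −0.16 to 0.18 (edgeR FDR 0.873). BCL2L1 mRNA had 44.1 and 41.6 CPM in WT against 36.0 and 37.04 CPM in XRN1-null libraries, without overlap. Its log2 fold change of −0.23 (95% interval −0.39 to −0.07) did not pass the threshold (edgeR FDR 0.0187). BCL2L1 overlaps ABALON, a long non-coding RNA gene of the opposite strand with a row of its own, with a log2 fold change of −0.37 in mRNA (SE 0.0876).

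The other BH3-only mRNAs did not pass the threshold. BID mRNA had 61.4 and 64.0 CPM in WT against 52.8 and 52.3 CPM in XRN1-null libraries, without overlap, and a log2 fold change of −0.26 (95% interval −0.40 to −0.11, edgeR FDR 0.00807). BID mRNA passed by the likelihood ratio test (edgeR FDR 0.00118). With 1 library left out, its log2 fold change ran from −0.265 to −0.227. BCL2L11 mRNA had 52.2 and 52.7 CPM in WT against 61.7 and 58.3 CPM in XRN1-null libraries. Its log2 fold change was 0.19 (95% interval 0.04 to 0.34, edgeR FDR 0.0293), and MIR4435-2HG overlaps it on the other strand. For PMAIP1 the WT libraries, at 182 and 155 CPM, lay on either side of the XRN1-null libraries, at 162 and 162 CPM. The log2 fold change of PMAIP1 was −0.05 (95% interval −0.25 to 0.14). BAD had 49.1 and 41.9 CPM in WT against 42.7 and 45.3 CPM in XRN1-null libraries, with a log2 fold change of −0.05 (95% interval −0.26 to 0.16). Scaled by library totals, the log2 fold changes of PMAIP1 and BAD were 0.000274 and 0.00672, of the other sign. BAD overlaps GPR137 on the other strand, whose mRNA had a log2 fold change of 0.01.

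**Figure D1:**
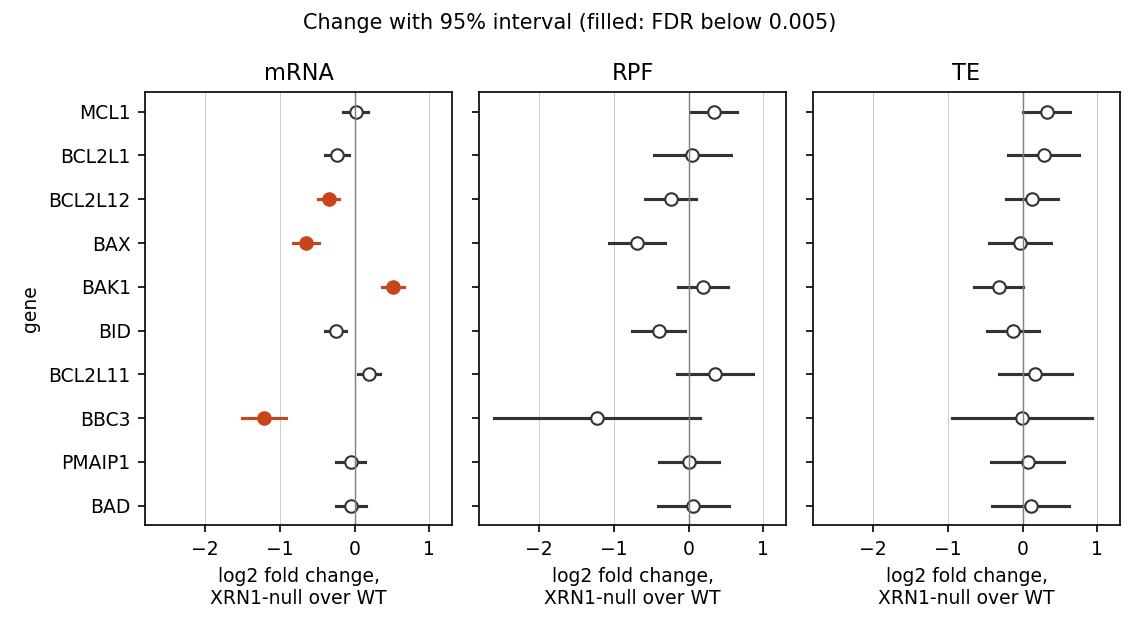
Log2 fold change of XRN1-null over WT for mRNA, RPF and TE of each gene, with 95% intervals; filled red points pass an FDR of 0.005. The 4 filled points are BCL2L12, BAX, BAK1 and BBC3 in mRNA, and the intervals are wider for RPF and TE, with BBC3 the widest.

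The RPF of none of the 10 genes passed the threshold, where 0.633% of all genes were called higher and 1.14% lower. At an unadjusted p below 0.05 edgeR gave 3 of the 10 and 33% of all genes. DESeq2 called none of the 10. The likelihood ratio test and the replicate block of edgeR each called BAX, where 5.9% and 6.58% of all genes were lower. The footprints of BAX stood at 123 and 88.4 CPM in WT against 67.5 and 60.6 CPM in XRN1-null libraries. No XRN1-null library reached a WT library, but the WT libraries lay far apart, and in RPF 32.1% of all genes lay wholly above and 32.3% wholly below. The log2 fold change of BAX RPF was −0.69 (SE 0.171, edgeR FDR 0.0208). The log2 fold change of BAX RPF was −0.455 without WT Ribo-Seq replicate 1 and −0.922 without replicate 2. Each of these fits holds 1 WT library, so its FDR leaves out the spread between the WT libraries. Calls over all genes rose in both fits.

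BAK1 RPF had 32.3 and 34.0 CPM in WT against 36.5 and 40.0 CPM in XRN1-null libraries. The log2 fold change was 0.19 with a 95% interval from −0.15 to 0.53 (edgeR FDR 0.412). MCL1 RPF had 111 and 124 CPM in WT against 147 and 152 CPM in XRN1-null libraries, each XRN1-null library being above the WT libraries. The log2 fold change of MCL1 RPF was 0.34 (95% interval 0.04 to 0.64, edgeR FDR 0.112), and it was 0.44 with replicate 2 of WT Ribo-Seq left out. BCL2L1 RPF had 10.4 and 11.0 CPM in WT against 11.2 and 11.2 CPM in XRN1-null libraries, a log2 fold change of 0.05 (95% interval −0.47 to 0.57). BCL2L12 RPF had 90.6 and 70.1 CPM in WT against 69.3 and 64.3 CPM in XRN1-null libraries, a log2 fold change of −0.24 (95% interval −0.58 to 0.10) that ran from −0.424 to −0.0601 with 1 library left out.

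Among the BH3-only genes, BBC3 had few footprints, 14 and 10 counts from WT replicates 1 and 2 against 7 and 5 from those of XRN1-null cells. The log2 fold change of −1.22 in RPF had a 95% interval from −2.60 to 0.16 (edgeR FDR 0.200), so a change of the size seen in its mRNA was not detectable with these libraries. Without replicate 2 of WT Ribo-Seq the log2 fold change was −2.10, and without replicate 1 it was −0.46. BID RPF had 64.6 and 49.8 CPM in WT against 42.7 and 41.8 CPM in XRN1-null libraries, a log2 fold change of −0.40 (95% interval −0.76 to −0.05, edgeR FDR 0.111). Without replicate 2 of WT Ribo-Seq the log2 fold change of BID RPF was −0.60. BCL2L11, PMAIP1 and BAD overlapped between the genotypes in RPF, with log2 fold changes of 0.35, 0.00372 and 0.06. The 95% interval was −0.16 to 0.86 for BCL2L11, −0.40 to 0.41 for PMAIP1 and −0.41 to 0.54 for BAD. With 1 library left out, the log2 fold change of BCL2L11 RPF ran from 0.0208 to 0.581.

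The WT Ribo-Seq replicates differed from each other in a way that touches these values. Replicate 1, the shallowest library, lay above replicate 2 for BAX, BCL2L12, BID, BCL2L11, BBC3 and PMAIP1 and below it for MCL1, BCL2L1, BAK1 and BAD. For PMAIP1 they read 124 and 88.4 CPM, and for BCL2L11 17.7 and 11.9 CPM. The part of depth in these differences was not tested. In XRN1-null cells PMAIP1 RPF read 90.6 and 119 CPM and BAD RPF 19.6 and 15.3 CPM.

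**Figure D2:**
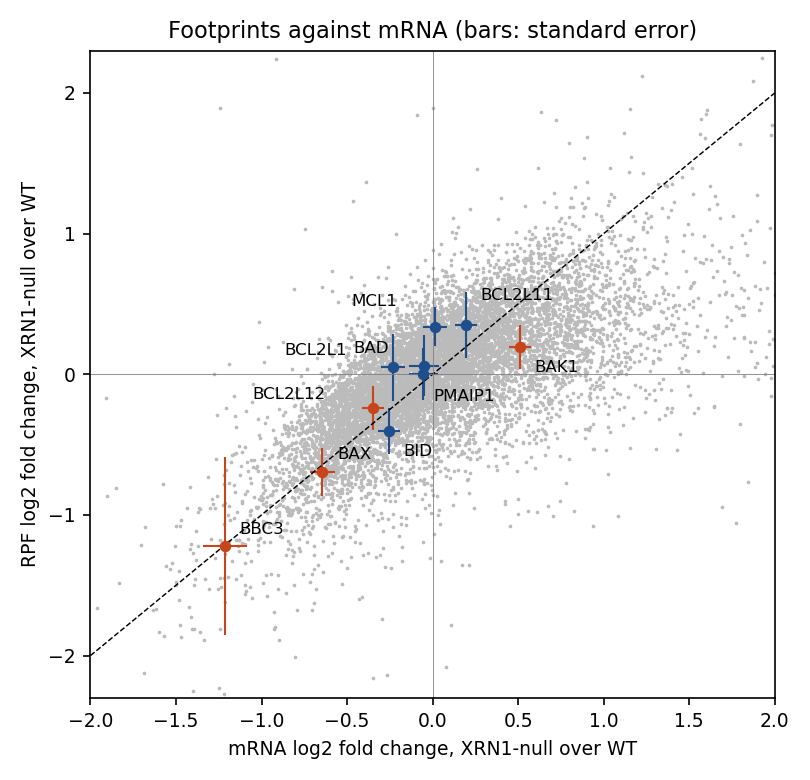
Log2 fold change of RPF against that of mRNA, XRN1-null over WT, with all genes in grey and the 10 family genes with standard errors (red where the mRNA passed the FDR threshold, blue otherwise); the dashed line marks equal change, and genes beyond the axes are not shown. BBC3 and BAX lie near the line, at −1.21 and −1.22 and at −0.64 and −0.69, while MCL1 lies above it and BAK1 below it.

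Per length, the order of RPF levels in WT cells was BAX, PMAIP1, BCL2L12, MCL1, BID, BAK1, BAD, BCL2L1, BCL2L11 and BBC3, from 81.0 ± 18.7 to 2.29 ± 1.69 RPKM (SD, n = 2 each). PMAIP1 with BCL2L12, BAK1 with BAD, and BCL2L11 with BBC3 overlapped. Since footprints come mainly from coding sequence, RPF were also divided by the coding length. On that scale PMAIP1, with its short coding part, had 656 ± 155 CPM per coding kb in WT cells and 648 ± 125 in XRN1-null cells (SD, n = 2 each). In WT cells BAX followed, with 183 ± 42.3 against 111 ± 8.58 CPM per coding kb in XRN1-null cells (SD, n = 2 each). MCL1 had 112 ± 8.82 and 142 ± 2.998, and BCL2L1 15.3 ± 0.615 and 16.03 ± 0.0638 CPM per coding kb (SD, n = 2 each). BBC3 was lowest in each genotype, at 8.28 ± 6.10 and 2.85 ± 0.217 CPM per coding kb (SD, n = 2 each). The counts are per gene, and footprints outside the annotated coding part cannot be told apart from those within it.

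The TE of none of the 10 genes passed the threshold in the interaction model, where 0.0495% of all genes were called higher and 1.78% lower. At an unadjusted p below 0.05 edgeR gave 1 of the 10, MCL1, and 23.3% of all genes. Neither DESeq2 nor edgeR's likelihood ratio test called any of the 10. The ratio of RPF to mRNA in CPM for MCL1 was 0.508 and 0.510 in WT against 0.643 and 0.640 in XRN1-null cells, without overlap, as for 28.8% of all genes with TE wholly above and 27.8% wholly below. The log2 change in TE was 0.32 (SE 0.144, 95% interval 0.01 to 0.64, edgeR FDR 0.203). BAK1 went the other way, with ratios of 0.457 and 0.453 in WT against 0.351 and 0.385 in XRN1-null cells. Its log2 change in TE was −0.32 (95% interval −0.64 to 0.00272, edgeR FDR 0.218).

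For BAX, whose mRNA fell, the ratios were 0.979 and 0.742 in WT against 0.909 and 0.735 in XRN1-null cells, and the genotypes overlapped. The log2 change in TE of BAX was −0.03 (95% interval −0.45 to 0.38). BBC3 had ratios of 0.618 and 0.184 in WT against 0.303 and 0.330 in XRN1-null cells. The log2 change in TE of BBC3 was −0.00409 (95% interval −0.94 to 0.93), so changes in TE within that interval were not detectable with these libraries. BCL2L1 had ratios of 0.236 and 0.265 in WT against 0.310 and 0.303 in XRN1-null cells, without overlap, and a log2 change in TE of 0.28 (95% interval −0.19 to 0.75). BCL2L11, BCL2L12, BID, PMAIP1 and BAD overlapped between the genotypes, with log2 changes in TE from −0.13 to 0.17.

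In WT cells the mean ratio of RPF to mRNA was lowest for BCL2L1 (0.250 ± 0.0204), BCL2L11 (0.283 ± 0.0798) and BAD (0.365 ± 0.0962) and highest for BID (0.915 ± 0.193), BAX (0.860 ± 0.167) and BCL2L12 (0.801 ± 0.156, SD, n = 2 each). The ratios of BBC3, at 0.618 and 0.184, lay on either side of those of BCL2L1, BCL2L11 and BAD. The ratio of BCL2L1 exceeded that of 4.22% of all genes and that of BCL2L11 6.02%, against 57.4% for BID. The ratio is not corrected for the coding share of the mRNA, and differences between genes in it are a description.

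Other genes of the pathway were set beside the family from lists that were fixed by name. Of 13 other BCL2 family proteins, 3 were in the table, BCL2L13 and the mitophagy receptors BNIP3 and BNIP3L, and none passed the threshold in mRNA, RPF or TE by edgeR's quasi-likelihood test or DESeq2. In mRNA 2 of the 3, BCL2L13 and BNIP3, had an unadjusted p below 0.05 in edgeR. The likelihood ratio test gave 1 of the 3 lower in mRNA, where 29.3% of all genes were lower. Leaving out a WT RNA-Seq library raised the lower calls among the 3 and over all genes. BCL2 itself, BCL2L2 and BIK were among those that were not rows of the table. Over all 8 lists, 55 of 75 genes were in the table, of which 11 were higher and 16 lower in mRNA, against a background of 22.9% and 23.2%.

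Downstream of the pore, 3 of the 8 measured genes of the apoptosome and caspases were higher in mRNA and 1 was lower, with a median log2 fold change of 0.335, against 22.9% and 23.2% of all genes and their median of −0.01. Leaving out WT RNA-Seq replicate 2 raised the number higher among the 8 and over all genes. APAF1, the scaffold of the apoptosome, averaged 37.1 ± 2.41 CPM in WT against 61.0 ± 1.32 CPM (n = 2 each, ± SD) and rose by 0.72 on the log2 scale (SE 0.071, edgeR FDR 0.000109). CASP2, an initiator caspase, rose by a log2 fold change of 0.58, while CYCS, the gene of cytochrome c, had −0.53 (edgeR FDR 0.00208). CYCS did not pass with XRN1-null RNA-Seq replicate 1 or 2 left out (edgeR FDR 0.0155 and 0.0126). Of the inhibitor of apoptosis proteins and their antagonists, 1 of 6 was higher, BIRC6, a giant ubiquitin ligase of caspases, with a log2 fold change of 1.26 in mRNA (SE 0.0765) and 0.47 in RPF (edgeR FDR 0.0461). With a WT library of the assay left out, more of the 6 were called higher in mRNA and in RPF, as were more of all genes. The log2 change in TE of BIRC6 was −0.80 (edgeR FDR 0.00744), which passed by library totals (0.00404), DESeq2 (0.000247) and the likelihood ratio test (2.59e-05). Of the outer membrane channels and released nucleases, 2 of 5 were lower, VDAC1 and VDAC3, with log2 fold changes of −0.39 and −0.35. Neither passed with XRN1-null RNA-Seq replicate 1 or 2 left out (edgeR FDR 0.0318 and 0.0327 for VDAC1, 0.0598 and 0.0352 for VDAC3), and VDAC3 missed the threshold when scaled by library totals (0.00748). None of the 5 was higher, but 1 was by the likelihood ratio test, where 28.9% of all genes were higher. Leaving out WT replicate 2 of the assay raised the higher calls of the 5 and of all genes, in mRNA and in RPF.

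Upstream, death receptors and their signalling had 2 of 7 genes higher and 4 lower in mRNA, with a median log2 fold change of −0.50, against 22.9% and 23.2% of all genes and their median of −0.01. The kinase RIPK1 and the caspase-8 regulator CFLAR rose, by 0.91 and 0.57 on the log2 scale. By library totals CFLAR mRNA averaged 1.37 RPKM in WT against 2.12 in XRN1-null cells, on either side of the authors' FPKM cut of 2. That cut may have kept CFLAR through the XRN1-null libraries, which was not tested. The receptors TNFRSF10B and TNFRSF1A fell by 0.75 and 0.57 on the log2 scale. No gene of the list was called in RPF by edgeR's quasi-likelihood test, with genotype as the term, on all 4 Ribo-Seq libraries. With a WT Ribo-Seq library left out, genes of the list were called in both directions, and calls over all genes rose. Of the 3 measured genes that set the stability of the MCL1 protein, 2 were higher in mRNA, the ubiquitin ligase HUWE1 with a log2 fold change of 0.89 and the deubiquitinase USP9X with 0.75. Their RPF did not pass the threshold, with log2 fold changes of −0.01 for HUWE1 and 0.50 for USP9X (FDR = 0.965 and 0.0441 from edgeR). Leaving out a WT Ribo-Seq library raised the higher calls in RPF among the 3 genes and over all genes. The log2 change in TE of HUWE1 was −0.905 (edgeR FDR 0.00737), which passed by library totals (0.00395), DESeq2 (0.000144) and the likelihood ratio test (6.29e-05).

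The list of p53, its inhibitors and target genes had 1 of 15 genes higher and 8 lower in mRNA, 2 lower in RPF and 1 lower in TE, with a median log2 fold change of −0.38 in mRNA against −0.01 over all genes. Over all genes 22.9% were higher and 23.2% lower in mRNA, 1.14% lower in RPF and 1.78% lower in TE. DESeq2 and the likelihood ratio test each gave 2 genes of the list higher in mRNA, where 26.6% and 28.9% of all genes were higher. Leaving out a WT RNA-Seq library raised the number higher in the list and over all genes. The 2 genes lower in RPF became 4 by the likelihood ratio test, where 5.9% of all genes were lower. They became 1 by DESeq2 and 1 with the minimum of 10 counts, where the shares were 1.15% and 0.952%. Leaving out a WT Ribo-Seq library raised the RPF calls of the list and of all genes, and leaving out XRN1-null Ribo-Seq replicate 2 lowered the lower calls of both. CDKN1A, the inhibitor of cyclin-dependent kinases, fell from 80.4 ± 2.302 to 34.0 ± 3.82 CPM in mRNA and from 39.9 ± 3.20 to 14.4 ± 0.366 CPM in RPF (SD, n = 2 each). Its log2 fold changes were −1.24 in mRNA (SE 0.0862, FDR = 2.42e-05) and −1.45 in RPF (SE 0.176, FDR = 0.00121, both from edgeR). PHLDA3, a repressor of AKT, fell by 1.01 on the log2 scale in mRNA, and GADD45A, a stress gene, by 1.3 in RPF. GADD45A did not pass in RPF with DESeq2 (adjusted p = 0.00854) or with the minimum of 10 counts (edgeR FDR 0.00505). It also did not pass without replicate 2 of XRN1-null Ribo-Seq, where its log2 fold change was −1.1. With either XRN1-null RNA-Seq library left out, 4 genes of the list were lower in mRNA, and over all genes the share called lower was 11% without replicate 1 and 10.9% without replicate 2. MDM4, an inhibitor of p53, was the gene that was higher, with 24.4 ± 0.376 against 48.0 ± 0.159 CPM (WT against XRN1-null, SD, n = 2 each). Its RPF stood at 68.5 ± 1.07 and 67.6 ± 4.23 CPM (SD, n = 2 each). BAX and BBC3 are also targets of p53, as is PMAIP1, whose mRNA did not pass the threshold.

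Of the list drawn up as inducers of BH3-only genes, 2 of 8 were higher in mRNA and 1 lower, near the 22.9% and 23.2% of all genes. With either WT RNA-Seq library left out, more of the 8 were called higher, as were more of all genes. TXNIP, which is not a transcription factor but a thioredoxin-binding protein, rose by a log2 fold change of 1.16 in mRNA and 1.55 in RPF (FDR = 3.3e-05 and 0.00182 from edgeR). DDIT3, the stress factor CHOP, rose by 0.57 and MYC fell by 0.49 on the log2 scale, each in mRNA. Neither DDIT3 nor MYC passed without replicate 1 of XRN1-null RNA-Seq (edgeR FDR 0.014 and 0.0194). In RPF, CDKN1A, GADD45A and TXNIP were the genes called among the 55 of these lists.

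**Figure D3:**
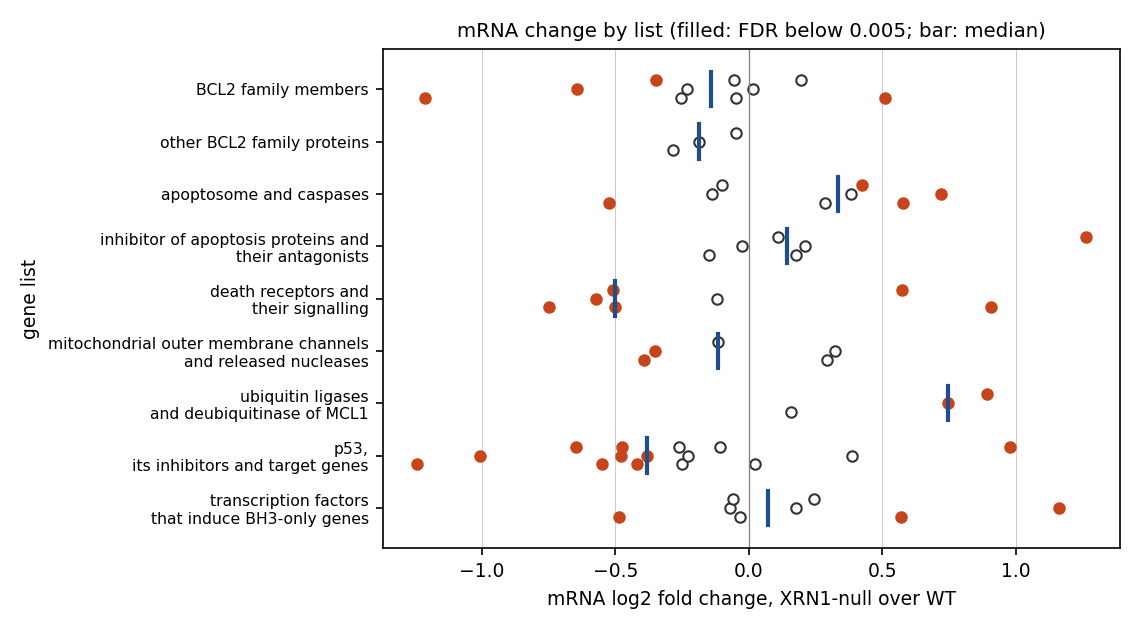
Log2 fold change of mRNA, XRN1-null over WT, for each measured gene of the family and of the other lists, with the median of each list as a blue bar; filled red points pass an FDR of 0.005. The p53 list lies mostly below 0 (median −0.38), and MDM4, at 0.98, is its filled point above 0.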

How the data were processed

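Per the study's methods, reads of ribosomal RNA were discarded by the authors (Bowtie2) and the rest mapped to hg19 by Tophat2, footprints with codon periodicity were kept, genes were counted by QuasR and those above an FPKM of 2 retained. The authors deposited raw counts for 10105 genes with a width per gene; no annotation is named in the sources used here. Their deposited tables of edgeR and RiboDiff comparisons (log2 fold changes, p-values, TE) were not used.

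Samples were grouped by their titles. Counts were fitted with edgeR 4.0.16 (R 4.3.3), with TMM factors within each assay, by assay with genotype as the term, and over all 8 libraries with the interaction of assay and genotype for TE. Calls were made at an FDR below 0.005 with Benjamini-Hochberg adjustment over all genes, without a filter. Standard errors are the log2 fold change over the square root of F. Alternatives were RLE factors, library totals, DESeq2 1.42.0, the likelihood ratio test, a minimum of 10 counts, an FDR of 0.05, replicate blocks and each library left out. A fit with 1 library left out holds 1 library in that group, so its FDR and calls do not measure the spread within it. The functions were tested on simulated counts.

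The members and lists were chosen with earlier results of these data known. Named were the 10 members, XRN1, and in each other list and contrast up to 2 genes with the largest rise and 2 with the largest fall among those called. BCL2L13, BNIP3 and BNIP3L are named as the measured genes of their list, where none was called. IRF3, GPR137 and ABALON are named as genes that overlap a member, and COL1A1 comes from the marker lists. Positions, reference transcripts and coding sequences came from GENCODE release 44 mapped to GRCh37 and were read with Python 3.11.15; the coding sequences stand in for a protein table, which was not used here. Counts have no molecular identifiers, so depth covers counting error only. The methods call the replicates biological without naming separate cultures, so p-values measure the spread between these samples.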

Additional observations from a re-analysis of the deposited data

Results flagged for a closer look

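For 2 genes named in the report, the effect of genotype differed between mRNA and RPF by the interaction test. XRN1 had a log2 change in TE of −4.09 (SE 0.22, edgeR FDR 1.66e-06), its mRNA being higher and its RPF lower in each XRN1-null library. XRN1 is the edited gene. The paper reports a frameshifting deletion in it and a retained intron in its transcripts, which it describes as non-translatable. MDM4 had a log2 change in TE of −0.997 (SE 0.127, edgeR FDR 0.000778), beside a log2 fold change of 0.98 in mRNA and −0.02 in RPF. With 1 XRN1-null library left out, the FDR of MDM4 in TE was between 0.00563 and 0.0145 from edgeR, past the threshold of 0.005 in none of these fits. None of the 10 family genes passed this test at an FDR of 0.005, and MCL1 had an unadjusted p below 0.05 (edgeR).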

How the results depend on the processing

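Under the settings that kept all libraries, BAK1 stayed higher and BAX, BBC3 and BCL2L12 stayed lower in mRNA at an FDR below 0.005. With an FDR of 0.05, 2 members were higher and 5 lower in mRNA and 1 was lower in RPF. At that cut 32.8% of all genes were higher and 34.2% lower in mRNA, and 8.38% were lower in RPF. The likelihood ratio test and the replicate block each gave 1 member lower in RPF, BAX (FDR = 0.00175 and 0.000164 from edgeR). With 1 library left out, 2 to 6 members were lower and 1 higher in mRNA, and 0 to 3 were lower and 0 to 1 higher in RPF. BAK1, BAX and BBC3 mRNA passed in each of these fits. Same-numbered libraries share only a number in the labels. Their deviations correlated across genes at 0.178 in RNA-Seq, 0.0742 in Ribo-Seq and 0.0716 in TE, and between RNA-Seq and Ribo-Seq, the pairing behind the block of cultures, at 0.341 in WT and 0.0206 in XRN1-null cells. The blocks called no member in TE. With the block of cultures BIRC6 and HUWE1 passed in TE (edgeR FDR 0.000127 and 3.79e-05), and 1 apoptosome or caspase gene was lower and 1 p53-list gene higher. The likelihood ratio test gave the same numbers for these 2 lists in TE and 1 apoptosome or caspase gene higher. With the replicate block HUWE1 passed in TE (0.00311), and 1 gene of death receptor signalling was higher in RPF. In mRNA that block gave 2 genes of the p53 list and 1 of the outer membrane channels higher and 1 other BCL2 family protein lower. It called 28.3% of all genes higher and 27.8% lower in mRNA. Over all genes, RPF calls were 64 higher and 115 lower, against 616 and 665 with the block, 469 and 596 by the likelihood ratio test, 714 and 847 at an FDR of 0.05 and 133 and 164 by library totals. TE calls were 5 and 180, against 55 and 435 with a block of cultures, 71 and 596 by the likelihood ratio test, 103 and 653 at an FDR of 0.05 and 7 and 322 with DESeq2. By library totals 2664 genes were higher and 1924 lower in mRNA, against 2313 and 2344. With 1 library left out, 1632 to 3410 genes were higher and 1097 to 3389 lower in mRNA, the lower counts being 1113 and 1097 without XRN1-null replicate 1 and 2. In RPF 71 to 1282 were higher and 72 to 1087 lower, the highest without WT replicate 2 and next 588 and 707 without WT replicate 1. In TE 0 to 9 were higher and 19 to 230 lower, the fewest without XRN1-null Ribo-Seq replicate 1.

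Scaled by library totals, the log2 fold changes of PMAIP1 and BAD mRNA were 0.000274 and 0.00672, and that of PMAIP1 RPF was −0.00301 with the likelihood ratio test, each of the other sign. Members near 0 also changed sign with 1 library left out. In mRNA, MCL1 ranged from −0.0405 to 0.0912, PMAIP1 from −0.169 to 0.087 and BAD from −0.159 to 0.0915. In RPF, PMAIP1 ranged from −0.24 to 0.24 and BAD from −0.136 to 0.287. In TE the ranges were −0.0753 to 0.289 for BCL2L12, −0.279 to 0.189 for BAX, −0.343 to 0.0234 for BID, −0.172 to 0.389 for BCL2L11, −0.905 to 0.752 for BBC3, −0.183 to 0.297 for PMAIP1 and −0.101 to 0.337 for BAD. BBC3 had under 10 counts in XRN1-null Ribo-Seq libraries and gave no RPF or TE value with the minimum of 10 counts. The causes were not tested.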
